A study of Mus musculus with 2 samples.

Results

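Metallothioneins and the antioxidant genes controlled by NRF2 were followed through the cells of normal pancreas and pancreatic tumour in mice. They are 10 of the 27998 genes in the files, chosen by symbol: Mt1 and Mt2, Hmox1, Slc7a11, Gclc and Gclm, Gstm1, Nqo1, Txnrd1 and Srxn1. Each symbol had 1 row. The genes were picked for their function and not for a measured value, although earlier results of these data were known when the list was made.

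The data are 2 libraries of droplet-based 3′ single-cell RNA sequencing (10x Genomics), 1 per group. All mice carried the Rosa26-mTmG reporter and Fabp4-Cre, so a cell turns from red to green fluorescence once the Fabp4 promoter has driven Cre in it or in an ancestor. GFP thus marks a cell's history rather than its type, and Fabp4 is also known from endothelial cells and macrophages. The normal library, labelled as pancreatic stellate cells, came from pancreata of mice aged 6 to 9 weeks and was sorted on GFP. The tumour library, labelled as cancer-associated fibroblasts, came from 8-week-old mice whose pancreas had received the mouse pancreatic cancer line FC1245 21 days before, and was sorted on GFP together with podoplanin (PDPN), which fibroblasts and lymphatic vessels carry on their surface. Normal tissue was digested with pronase and collagenase P, and tumours for longer with collagenase IV and dispase, so that tissue, digestion and gate cannot be told apart. How many mice were pooled was not stated in the sources used here. With 1 library per group there was no test of the conditions, and every interval below is an exact 95% interval, and the limit stated in a sentence for a count of 0 is 3 counts of the total. Both reflect the counting of molecules and leave out how mice differ.

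Metallothioneins are small cysteine-rich proteins that bind zinc and copper. Their genes are switched on by the zinc-sensing factor MTF1 at metal response elements (MREs), and also by glucocorticoids and inflammatory cytokines. NRF2, encoded by Nfe2l2, is held at low levels by KEAP1 and, once released by electrophiles or oxidants, pairs with small MAF proteins at antioxidant response elements (AREs) to switch on genes for glutathione synthesis, conjugation and the thioredoxin system. BACH1 occupies the same elements as a repressor and leaves them when haem is abundant.

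The normal library had 5437 barcodes and 36675424 unique molecular identifiers (UMIs, each standing for 1 captured transcript), and the tumour library 2942 barcodes and 33285044 UMIs. After filtering, 4515 normal cells with a median of 7045 UMIs and 2520 tumour cells with a median of 10156.5 UMIs were used; the libraries shared 4 barcodes, of which 2 were kept as cells in both. Classes were named from marker genes, with the 10 genes left out of the clustering, so their levels did not shape the clusters. Many cells of the normal sort did not carry fibroblast markers: 1445 normal cells were fibroblast-like (Col1a1, Dcn, Pdgfra), 1394 macrophage-like (Csf1r, C1qa), 1246 endothelial-like and 128 pericyte-like or smooth muscle-like. In the tumour library 2220 cells were fibroblast-like and 53 macrophage-like, and 42 were epithelial-like, 72 lymphatic endothelial-like and 52 B-like. Fibroblast-like cells fell into 6 subsets, each called here by a gene among those that led it: G0s2 (1074 cells) and Sema3c (366 cells) in the normal library, and Apod (454), Ptx3 (581), Thbs4 (774) and Cthrc1 (390) in the tumour library. The Cthrc1 subset was the deepest, with a median of 26298 UMIs per cell against 7843.5 to 13252.5 in the others.

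Stretches before the annotated starts of genes on which the results turn are shown from RefSeq (assembly GRCm38.p6). MTF1 and NRF2 can read elements there, and such elements may also lie outside the stretches shown. Each stretch is 250 bases, 5′ to 3′ on the gene's strand, and ends at the base before the RefSeq start. Gene positions given further below come from GENCODE, and the sources place some starts differently. The Mt1 stretch ends at 94179088, past the GENCODE start at 94179082, and the Srxn1 stretch at 152105523, past 152105516. The Mt2 stretch ends at 94172617, ahead of 94172664. Capitals mark matches to an MRE core (TGCACNC or TGCGCNC) or an ARE core (TGACNNNGC) on either strand. They lie at chr8:94178839-94179088 (Mt1), chr8:94172368-94172617 (Mt2), chr3:108017974-108018223 (Gstm1, the upstream of 2 starts, on the minus strand), chr3:122245307-122245556 (Gclm) and chr2:152105274-152105523 (Srxn1), with the other genes on the plus strand.
Mt1: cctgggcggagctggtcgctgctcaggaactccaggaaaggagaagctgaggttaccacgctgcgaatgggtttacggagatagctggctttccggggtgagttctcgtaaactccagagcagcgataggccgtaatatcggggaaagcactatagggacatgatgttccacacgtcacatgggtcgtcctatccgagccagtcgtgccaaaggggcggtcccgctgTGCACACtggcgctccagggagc
Mt2: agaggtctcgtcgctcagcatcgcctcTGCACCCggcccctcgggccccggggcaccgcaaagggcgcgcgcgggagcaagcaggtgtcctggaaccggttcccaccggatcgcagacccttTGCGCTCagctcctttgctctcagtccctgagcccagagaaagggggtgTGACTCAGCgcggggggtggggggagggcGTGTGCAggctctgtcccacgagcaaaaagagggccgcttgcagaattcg
Gstm1: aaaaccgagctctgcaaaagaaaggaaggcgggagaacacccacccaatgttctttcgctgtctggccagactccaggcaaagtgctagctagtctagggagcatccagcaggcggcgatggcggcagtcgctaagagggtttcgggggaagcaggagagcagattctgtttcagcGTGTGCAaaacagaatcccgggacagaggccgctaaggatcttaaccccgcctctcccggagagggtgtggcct
Gclm: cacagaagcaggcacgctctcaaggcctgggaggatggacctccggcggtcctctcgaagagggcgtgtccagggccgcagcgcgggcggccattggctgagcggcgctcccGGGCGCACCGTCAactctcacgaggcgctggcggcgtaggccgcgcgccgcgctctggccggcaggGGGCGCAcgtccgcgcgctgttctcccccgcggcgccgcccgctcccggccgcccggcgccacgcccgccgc
Srxn1: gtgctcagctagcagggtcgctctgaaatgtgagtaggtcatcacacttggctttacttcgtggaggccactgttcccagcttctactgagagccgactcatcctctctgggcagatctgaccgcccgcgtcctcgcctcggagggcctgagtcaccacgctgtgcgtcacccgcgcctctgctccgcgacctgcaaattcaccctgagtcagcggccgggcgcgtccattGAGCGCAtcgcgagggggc

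The Mt2 stretch held 3 MRE matches, against 5.175% of the 32851 stretches of that length in the RefSeq table with 2 or more, and 1 ARE match, which 10.2% of stretches held. Mt1 had 1 MRE match before its start and 2 that reached into the 50 bases after it. Gclm had 2 MRE matches and 1 ARE match that overlapped one of them, Gstm1 and Srxn1 had 1 MRE match each, and 21.4% of all stretches had at least 1. In Srxn1 an ARE match lay only in the window that runs 50 bases past the start; over windows of that length 25.7% had an MRE match and 12.4% an ARE match. Nqo1 and Slc7a11 had no match to either core in these windows, and of the 3 starts of Txnrd1 1 had an ARE match. The table held no entry for Hmox1 and Gclc. A match describes the letters and does not show that a factor binds there. A stretch without a match may hold other forms of these elements: the Srxn1 stretch has tgagtcagc, which differs from the ARE core by 1 letter.

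In fibroblast-like cells Mt1, Mt2, Hmox1 and Srxn1 were higher in the tumour library and Gstm1 was lower, while the genes for glutathione synthesis, Gclc and Gclm, stayed within 1.5-fold. A gene was called when its tumour and normal CPM (a gene's UMIs per 1000000 UMIs summed over the class) were at least 2-fold apart, the interval of the ratio excluded 1 and either sum reached 50 CPM. By that rule 4 of the 6 members with at least 50 CPM were called higher, where 9.51% of 3648 genes were called higher, and 1 was called lower, where 11.1% of genes were. The median log2 fold of those 6 was 1.51, against -0.16 over all 3648. Hmox1, Srxn1 and Txnrd1 reached 50 CPM in the tumour sum only, and so entered through the library where they were higher. The members left out had log2 folds of -0.77 (Nqo1), -0.53 (Gclm), 0.30 (Gclc) and 3.26 (Slc7a11, on few counts). With TMM scaling (a factor of -0.32 on the log2 scale for the tumour sum) every log2 fold is higher by that much, the counts over all genes turn from 347 higher and 405 lower into 547 higher and 210 lower, and no member changes direction.

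**Figure D1:**
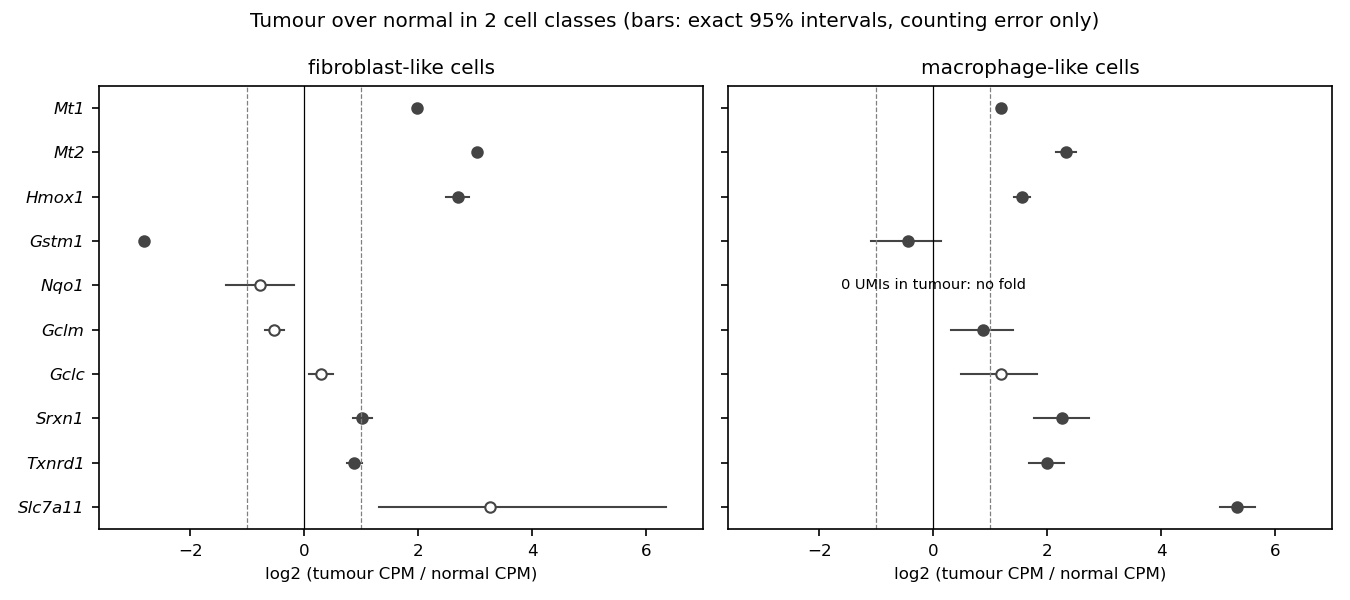
Log2 ratio of tumour to normal CPM for the 10 genes in fibroblast-like (left) and macrophage-like (right) cells, with exact 95% intervals of counting error; filled points had at least 50 CPM in either sum, open points did not, and dashed lines mark 2-fold. Mt1, Mt2, Hmox1 and Srxn1 lie beyond the right line in both classes, Gstm1 lies at -2.82 on the left only, and Slc7a11 reaches 5.33 in macrophage-like cells.

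Mt1 (ENSMUSG00000031765, GRCm38 chromosome 8, 94179082 to 94180327) had 1031 CPM in normal fibroblast-like cells and 4090.2 CPM in those of the tumour, a level 3.97 times as high (3.90 to 4.04). By subset it was at 793 CPM in G0s2 and 1397 CPM in Sema3c cells of the normal library. In the tumour library it was at 1927 CPM in Cthrc1, 3349 CPM in Thbs4, 6299 CPM in Ptx3 and 8128 CPM in Apod cells. No intervals of neighbours in that order overlapped, and all 4 tumour subsets were above both normal ones by this measure. The share of all genes that separate the subsets in this way was not counted, here or for the genes below. Finer clusters did overlap: a normal cluster of 100 cells led by Inmt, which is part of the Sema3c subset, was at 2137 CPM, above the 1380 CPM of a tumour cluster of 127 cells led by Lrrc15, which is part of the Cthrc1 subset. The highest was a tumour cluster of 68 cells led by A2m, part of the Ptx3 subset, at 11400 CPM.

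Mt2 (chromosome 8, 94172664 to 94173568), which lies next to Mt1 on the same strand, had 189.8 CPM in normal fibroblast-like cells and 1556 CPM in those from tumour, a ratio of 8.20 (7.88 to 8.53). It was at 103 CPM in G0s2, 324 CPM in Sema3c, 811 CPM in Cthrc1, 1097 CPM in Thbs4, 2681 CPM in Ptx3 and 2791 CPM in Apod cells. The order was that of Mt1, and here the finer clusters of at least 50 cells did not overlap between the libraries, with 355 CPM as the highest normal and 573 CPM as the lowest tumour value. The 19 tumour cells that fell into the G0s2 subset were lower, at 213 CPM.

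The gap was larger for Mt2 than for Mt1, so the ratio of their UMIs shifted. There were 5.43 Mt1 UMIs per Mt2 UMI (5.21 to 5.66) in normal and 2.63 (2.60 to 2.66) in tumour fibroblast-like cells. The ratio was 7.67 in G0s2 and 4.31 in Sema3c cells, and lay between 2.35 (Ptx3) and 3.05 (Thbs4) in the tumour subsets. In macrophage-like cells it was 10.6 (10.0 to 11.2) for normal and 4.78 (4.23 to 5.41) for tumour tissue. The other metallothionein genes, Mt3 and Mt4, were under 1 CPM in both fibroblast-like sums.

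**Figure D2:**
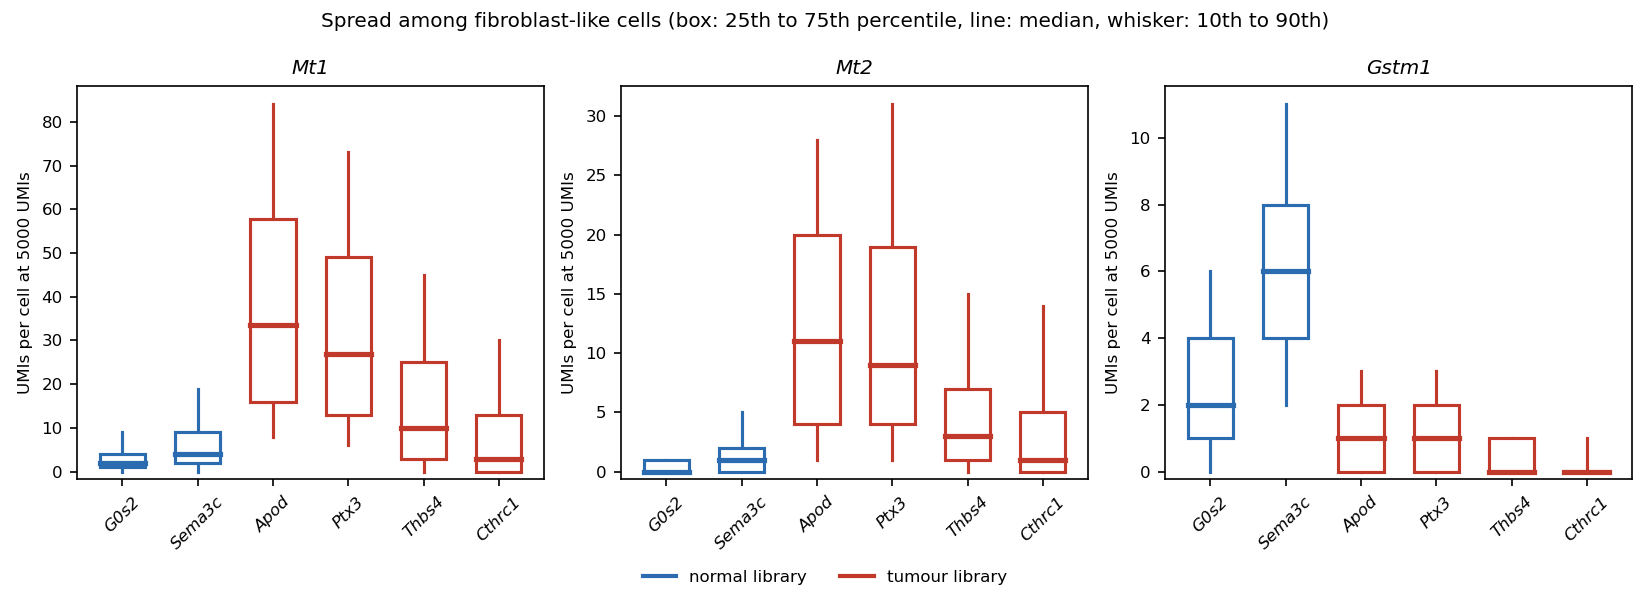
UMIs per cell of Mt1, Mt2 and Gstm1 in each fibroblast-like subset after thinning each cell to 5000 UMIs (box, 25th to 75th percentile; line, median; whisker, 10th to 90th percentile). The Mt1 median is 2 and 4 UMIs in the normal subsets and 33.5 in the Apod subset, while Gstm1 is highest in the Sema3c subset, at a median of 6 UMIs.

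Cells differed widely within a subset. After thinning each cell to 5000 UMIs, which left out 140 of 1445 normal and 363 of 2220 tumour cells as too shallow, the median cell had 2 Mt1 UMIs if normal and 15 if from tumour, with 10th and 90th percentiles of 0 and 13, and of 0 and 62. The 10% of cells with most Mt1 held 51.4% of its UMIs among normal and 35.0% among tumour cells. The Cthrc1 subset was the most uneven of the tumour subsets: its median of 3 UMIs lay below the 4 of the normal Sema3c subset, although its mean of 10.7 was above the mean of 6.98 there, and 51.8% of its UMIs were in the top 10% of cells. The Apod subset was the most even, with a median of 33.5 UMIs and 26.0%. For Mt2 the median was 1 UMI in both Cthrc1 and Sema3c cells. Mt1 and Mt2 varied together from cell to cell: Spearman's rho was 0.33 in G0s2, 0.54 in Sema3c and 0.73 to 0.76 in the 4 tumour subsets (338 to 944 cells each). With Hmox1 it was between -0.08 and 0.09 in 5 subsets and 0.26 in the Cthrc1 subset. These are descriptions over cells of 1 library, and sparse counts weaken them.

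The share of cells with a Mt1 UMI was 86.8% of normal and 95.6% of tumour fibroblast-like cells (medians of 8995 and 10446 UMIs), and 80.2% and 89.6% after thinning. Endothelial-like cells of the normal library, at a median of 4174.5 UMIs, had a Mt1 UMI in 6.50% (6.90% thinned) and 16.0 CPM, and B-like cells had 39.0 CPM (normal) and 29.3 CPM (tumour). Those levels show how much Mt1 the droplets of cells with little of it carried. For Mt2 the thinned share was 33.0% of normal and 79.3% of tumour fibroblast-like cells, against 0.985% of endothelial-like cells.

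**Figure D3:**
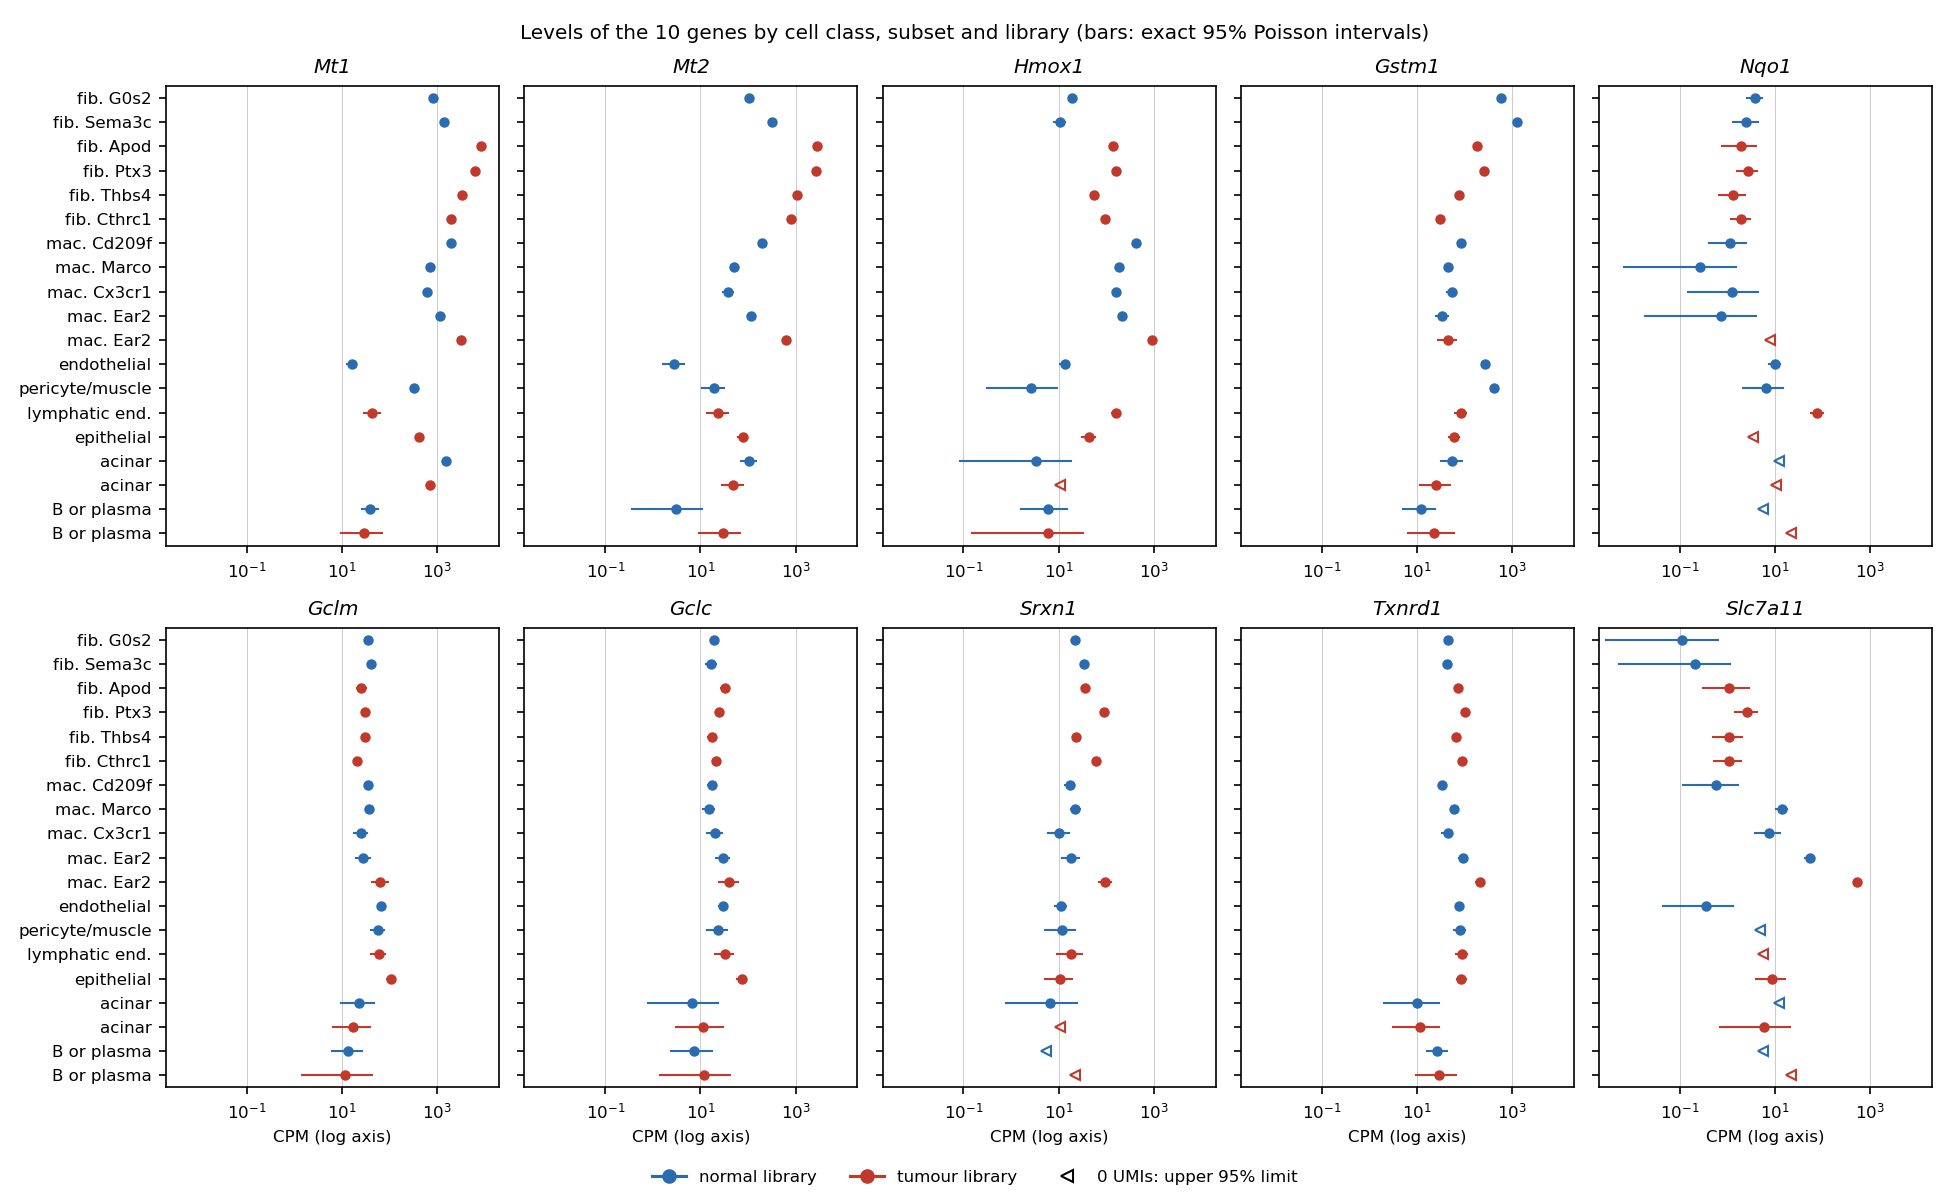
CPM of each of the 10 genes (log axis) in fibroblast-like (fib.) and macrophage-like (mac.) subsets and other classes, by library, with exact 95% Poisson intervals; open triangles give the upper limit where no UMI was counted. Mt1 spans 16.0 CPM in endothelial-like to 8128 CPM in Apod cells, Nqo1 is highest among the units drawn in lymphatic endothelial-like cells of the tumour at 76.0 CPM, and Slc7a11 in tumour cells of the Ear2 subset at 519 CPM.

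Hmox1 encodes the inducible haem oxygenase, which splits haem into biliverdin, carbon monoxide and iron. The gene (chromosome 8, 75093621 to 75100589) had 15.9 CPM in fibroblast-like cells of the normal and 103 CPM in those of the tumour library, 6.48-fold higher (5.64 to 7.46). By subset it was at 10.6 CPM in Sema3c, 19.0 CPM in G0s2, 55.7 CPM in Thbs4, 95.9 CPM in Cthrc1, 138 CPM in Apod and 159 CPM in Ptx3 cells, so that all tumour subsets were above both normal ones, while the intervals of Apod and Ptx3 overlapped. The normal level could not be told from that of endothelial-like cells: 7.66% (6.28 to 9.24%) of thinned normal fibroblast-like cells had a Hmox1 UMI, and 5.17% (3.23 to 7.80%) of thinned endothelial-like cells, at 13.4 CPM. In the tumour library 25.4% of thinned fibroblast-like cells had a UMI, and lymphatic endothelial-like cells of that library had 164 CPM (135 to 197). Few cells carried most of it: the top 10% of tumour fibroblast-like cells held 72.5% of the Hmox1 UMIs after thinning.

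Macrophages use haem oxygenase to recycle the haem of engulfed red cells. Among normal classes of at least 50 cells Hmox1 was highest in the macrophage-like one, at 293 CPM, with 431 CPM in the Cd209f subset, 214 CPM in Ear2, 184 CPM in Marco and 163 CPM in Cx3cr1 cells. The last 3 overlapped their neighbours within counting error, and the Cd209f subset stood above them.

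Slc7a11, the cystine importer that feeds glutathione synthesis, was almost undetected in fibroblast-like cells. It had 2 UMIs in all normal and 40 UMIs in all tumour fibroblast-like cells, or 0.145 and 1.39 CPM. In the tumour library 0.991% of these cells had a UMI (0.485% thinned), and 0 of 72 lymphatic endothelial-like cells did, which at 3 counts of the total allows a share of cells with a UMI of up to 4.17%. Its partner chain Slc3a2, which also serves other transporters, was at 113 and 250.4 CPM, 2.22-fold higher (2.10 to 2.35). In the normal library Slc7a11 was highest in a subset of the macrophage-like cells, with 53.4 CPM (41.9 to 67.0) in normal cells of the Ear2 subset, 13.8 CPM in Marco, 7.37 CPM in Cx3cr1 and 0.568 CPM in Cd209f cells.

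Gclc and Gclm, the catalytic and the modifier subunit of the enzyme that sets the rate of glutathione synthesis, differed little. Gclc had 18.3 CPM in normal fibroblast-like cells and 22.4 CPM in those from tumour, a ratio of 1.23 (1.06 to 1.43). Gclm was at 37.6 and 26.1 CPM, 1.44-fold lower (1.29 to 1.61). Across the 6 subsets Gclc stayed between 16.8 and 32.4 CPM and Gclm between 20.8 and 41.0 CPM. Among all classes and subsets of at least 15 cells both were highest in the 42 epithelial-like cells of the tumour library, Gclm at 108 CPM (89.5 to 130) and Gclc at 74.2 CPM (58.7 to 92.6). Those cells had 416 CPM of Mt1.

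Gstm1, a glutathione S-transferase that conjugates electrophiles, ran the other way from the metallothioneins between the libraries. The gene (chromosome 3, 108012255 to 108017973, minus strand) had 826 CPM in fibroblast-like cells of the normal and 117 CPM in those of the tumour library, 7.07-fold lower (6.80 to 7.35). It was at 1267 CPM in Sema3c and 587 CPM in G0s2 cells, and at 259 CPM in Ptx3, 186 CPM in Apod, 78.2 CPM in Thbs4 and 30.1 CPM in Cthrc1 cells. All 4 tumour subsets were below both normal ones, and no intervals of neighbours overlapped. How many of all genes do the same was not counted. Within each library Gstm1 did not run against Mt1. For both genes Sema3c cells were above G0s2, and Ptx3 and Apod above Thbs4 and Thbs4 above Cthrc1 cells. Over thinned cells Spearman's rho of Mt1 with Gstm1 was 0.15 in all normal and 0.24 in all tumour fibroblast-like cells. By subset it was between -0.03 and 0.15. After thinning, 90.4% of normal but 39.9% of tumour fibroblast-like cells had a Gstm1 UMI. The 19 tumour cells of the G0s2 subset had 471 CPM (361 to 604), an interval that reaches the 587 CPM of the normal cells there, and 1833 CPM of Mt1.

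Other cells of the normal library had Gstm1 too: pericyte-like or smooth muscle-like cells had 420.03 CPM and endothelial-like cells 272 CPM, against 62.7 CPM in macrophage-like and 12.0 CPM in B-like cells. Its neighbours in the gene family are close copies, so reads could be split among them, and the split was not tested. Of 6 such genes 2 reached 50 CPM and neither was called: Gstm2 was at 206.5 and 152 CPM, 1.36-fold lower (1.30 to 1.43), and Gstm5 at 89.2 and 57.1 CPM, 1.56-fold lower (1.45 to 1.69).

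Nqo1, a quinone reductase that is often used as a readout of NRF2, was low in fibroblast-like cells, with 3.27 CPM if normal and 1.91 CPM if from tumour. A Nqo1 UMI was found in 3.04% and 2.39% of cells, and after thinning in 1.69% (1.06 to 2.54%) and 0.862% (0.493 to 1.40%), which overlaps the 0.695% (0.301 to 1.36%) of normal macrophage-like cells. Lymphatic endothelial-like cells stood apart, with 51 UMIs over 72 tumour cells or 76.0 CPM (56.6 to 99.9), and 7 UMIs over 15 normal cells or 109 CPM (43.9 to 225). There 36.1% of the tumour cells had a Nqo1 UMI at a median depth of 8454.5 UMIs. The other endothelial-like cells were at 9.80 CPM (7.38 to 12.8).

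Txnrd1, the cytosolic thioredoxin reductase, had 45.4 CPM in fibroblast-like cells of the normal and 83.4 CPM in those of the tumour library, a ratio of 1.84 (1.68 to 2.01) that is under the 2-fold rule. With TMM or median ratio scaling it passed. Its subsets ran from 42.6 CPM in Sema3c to 102 CPM in Ptx3 cells. Srxn1, the sulfiredoxin that repairs over-oxidised peroxiredoxins, was at 26.4 and 53.7 CPM, 2.03-fold higher (1.81 to 2.28), so its call rests on the edge of the rule. It was not higher in every tumour subset: Thbs4 cells, at 23.7 CPM, lay between the 22.4 CPM of G0s2 and the 34.2 CPM of Sema3c cells, and Ptx3 cells, at 89.8 CPM, held the highest level. Without the Cthrc1 subset the log2 fold of Srxn1 was 0.89.

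In macrophage-like cells 6 of the 8 members with at least 50 CPM were called higher in the tumour library, where 14.4% of 3500 genes were called higher, and 0 were called lower, where 13.6% of genes were. Of the 8, Slc7a11, Srxn1, Txnrd1 and Gclm reached 50 CPM in the tumour sum only, and so entered through the library where they were higher. Slc7a11 was at 11.7 and 471 CPM, 40.3-fold higher (32.6 to 49.9). Mt2 was at 122 and 617 CPM, 5.06-fold higher (4.47 to 5.71), and Mt1 at 1293 and 2950 CPM, 2.28-fold higher (2.16 to 2.40). Hmox1, at 293 and 865 CPM, was 2.96-fold higher (2.67 to 3.26), Srxn1 4.81-fold (3.41 to 6.65) and Txnrd1 3.97-fold (3.19 to 4.90). Gstm1, at 62.7 and 46.1 CPM, was not called (ratio 0.736, 0.469 to 1.10), and Nqo1 had 10 UMIs in the normal and 0 in the tumour cells.

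These macrophage-like sums compare unlike cells. Of the 53 tumour cells 48 lay in the Ear2 subset, which held 133 of the 1394 normal cells, and 47 of them formed a finer cluster led by Arg1 and Cxcl3 with 18 normal cells. A few cells carried most of the tumour UMIs: the 5 with most held 62.8% for Mt1, 65.1% for Mt2, 87.6% for Hmox1, 86.7% for Srxn1, 53.5% for Slc7a11 and 35.0% for Txnrd1. Without the 5 tumour cells with most Mt1, a set chosen after seeing the data, 4 members were called: Mt1 was 1.01-fold (0.924 to 1.09) and Hmox1 1.07-fold (0.894 to 1.27) the normal level, while Slc7a11 was 27.9-fold (22.0 to 35.5), Txnrd1 3.66-fold, Srxn1 3.30-fold and Mt2 2.47-fold higher. All 5 neutrophil markers were higher in the tumour sum, at 8868 CPM together against 82.4 CPM, and 9 tumour cells had a UMI of S100a9. The class's own macrophage markers summed to 29648 CPM in normal and 14862 CPM in tumour cells, and fibroblast markers to 280 and 794 CPM. Of the 23 fibroblast markers 9 were higher in the tumour sum and 8 had no UMI there, and Il6 was the highest in either sum. The part of fibroblast RNA in the folds was not tested. Without cells that had a UMI of S100a9 (these 9 and 1 normal cell) the same 6 members were called, Slc7a11 at 37.9-fold. With doublets kept, and with the 10 genes used for clustering, most of the Arg1-led cells lost their class name and 9 tumour cells remained, in which Mt1 was 1.30-fold and 1.28-fold and Hmox1 0.631-fold and 0.627-fold the normal level, Srxn1 0.595-fold (0.0150 to 3.35) and 0.627-fold (0.0158 to 3.53), and Slc7a11 14.1-fold and 15.6-fold. Within the Arg1-led cluster the 18 normal cells had 42.1 CPM of Slc7a11 and the 47 tumour cells 496 CPM, 11.8-fold higher (4.98 to 36.6). Slc7a11 is among the 10 genes that led that cluster in both libraries together. There Mt2 was 6.28-fold (3.54 to 12.3), Srxn1 5.79-fold (1.51 to 49.2) and Mt1 3.09-fold (2.56 to 3.75) higher. Hmox1, at 624 and 939 CPM, was 1.51-fold higher (1.17 to 1.95). Txnrd1, at 118 and 210 CPM, was 1.78-fold higher (1.01 to 3.38), and both are under the 2-fold rule.

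Genes whose levels ran most like a member's were sought over the 15 classes and subsets of at least 50 cells, as Pearson's r of log2(CPM + 1) among 6317 genes. These units come from 2 libraries, and the values are a description. The 48 tumour cells of the Ear2 subset, where Slc7a11 was highest, were too few to be among them. Nqo1 was at 76.0 CPM in the lymphatic endothelial-like cells of the tumour but low in fibroblast-like and macrophage-like units, so its r leans on few units. For Mt1 the closest were Tiparp (r = 0.96), Cxcl1 (0.92) and Lpar1 (0.91), with Mt2 ranked 4 (0.91). For Hmox1 they were Zswim6, Zfand5 and Ctsb (each 0.89), for Gstm1 Efcab14 (0.92), Tshz1 (0.89) and Pkn2 (0.88), for Nqo1 Galnt18 (0.95), Hjurp (0.94) and Sh3glb2 (0.93), and for Slc7a11 Adam8 (0.96), Slamf8 (0.91) and Skint3 (0.90).

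The factors that govern the 10 genes were read from a fixed list, against 9.51% of all 3648 genes called higher and 11.1% lower. Of 10 such NRF2 genes with at least 50 CPM in fibroblast-like cells 3 were called higher and 0 lower: Maff, a small MAF partner, from 28.9 to 105 CPM (3.65-fold, 3.29 to 4.06), Bach1, the repressor, from 43.3 to 129 CPM (2.97-fold, 2.72 to 3.25), and Sqstm1, an adaptor that binds KEAP1 and is named here after its values were seen, from 154 to 371 CPM (2.42-fold, 2.31 to 2.54). Maff and Bach1 reached 50 CPM in the tumour sum only and Keap1 in the normal sum only, so each entered through the library where it was higher. Keap1 was at 56.4 and 30.5 CPM, 1.85-fold lower (1.68 to 2.04), which is under the rule, and Rbx1, a subunit of its ubiquitin ligase, at 199 and 194 CPM. Nfe2l2, named here after its values were seen, was at 241 and 287 CPM, 1.19-fold higher (1.14 to 1.24). The Bach1 level was 37.0 and 54.0 CPM in the normal subsets and 77.2 to 173 CPM in those of the tumour, so the repressor and Hmox1 were both higher there.

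Of 13 other NRF2 targets at that level 1 was called higher and 2 lower, near the shares of all genes (9.51% and 11.1%). Their median log2 fold was -0.21, against -0.16 over all 3648 genes, and the TMM shift would turn its sign. Akr1b8, an aldo-keto reductase, was at 38.3 and 93.2 CPM (2.43-fold, 2.21 to 2.67), Prdx1, a peroxiredoxin, at 500.4 and 796 CPM (1.59-fold), Ephx1, an epoxide hydrolase, at 94.6 and 32.4 CPM (2.92-fold lower) and Cbr3, a carbonyl reductase, at 62.8 and 27.7 CPM (2.27-fold lower). Among 9 glutathione genes 1 was called higher, Slc3a2, and 2 lower: Gstt1, a theta-class transferase, at 250.4 and 70.3 CPM (3.56-fold lower), and Ggt5, which cleaves extracellular glutathione, at 124 and 49.9 CPM (2.49-fold lower). Akr1b8 reached 50 CPM in the tumour sum only, and Ephx1, Cbr3 and Ggt5 in the normal sum only. Gpx7 was at 79.5 and 115 CPM. Among 9 thioredoxin and peroxide genes Sod2, the mitochondrial superoxide dismutase, was called higher, at 54.0 and 140.03 CPM (2.59-fold), and Txnip, an inhibitor of thioredoxin, lower, at 387 and 98.4 CPM (3.93-fold lower). Prdx6 was at 146 and 229.6 CPM and Sod1 at 112 and 95.6 CPM.

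Of the 4 metal-handling genes at that level 1 was called higher, where 9.51% of all genes were. Slc39a14, an importer of zinc, iron and manganese that inflammation induces, was at 29.0 and 150.2 CPM (5.17-fold, 4.67 to 5.75). It reached 50 CPM in the tumour sum only. Its level was 32.6 CPM in G0s2 and 22.2 CPM in Sema3c cells, and 92.8 to 165 CPM in the tumour subsets. Slc39a1, a zinc importer of the plasma membrane, was at 129 and 249 CPM (1.93-fold), Slc39a7 at 116 and 85.6 CPM and Slc39a13 at 68.7 and 60.4 CPM. Mtf1, the metal sensor itself, and the zinc exporter Slc30a1, both named after their values were seen, were under 50 CPM, Mtf1 at 24.6 and 13.2 CPM and Slc30a1 at 11.7 and 8.66 CPM. Of the haem and iron genes only Cp, the ferroxidase ceruloplasmin, reached 50 CPM, at 351 and 226 CPM, and it was not called.

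**Figure D4:**
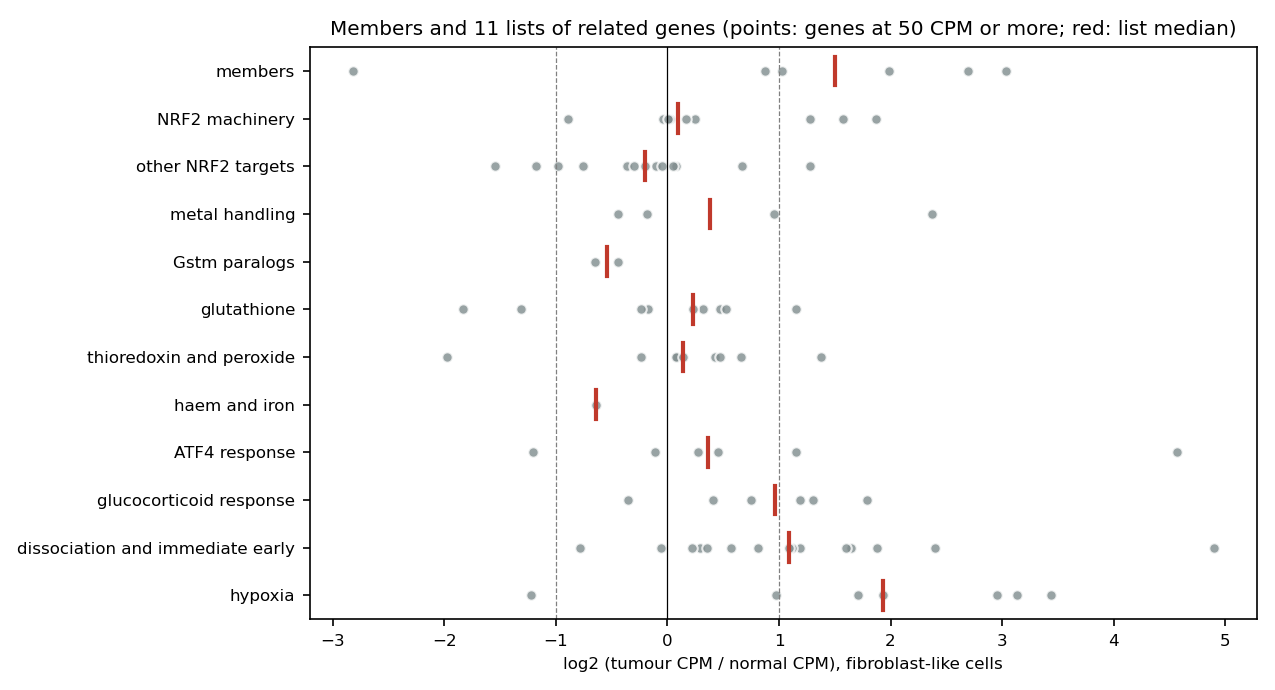
Log2 ratio of tumour to normal CPM in fibroblast-like cells for the members and for genes of 11 related lists with at least 50 CPM in either sum (points), with each list's median (red) and dashed lines at 2-fold. The median is 1.51 for the members, near 0 for the NRF2 lists, and 0.97, 1.09 and 1.93 for the glucocorticoid, dissociation and hypoxia lists.

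Genes of other stimuli that can act on these promoters were read the same way, against the same shares of all genes (9.51% higher and 11.1% lower). Of 15 dissociation and immediate early genes 8 were called higher and 0 lower (median log2 fold 1.09), led by Ier3, at 56.0 and 1672 CPM (29.8-fold), and Dnajb1, at 100.2 and 529 CPM (5.28-fold), while Jun was at 2579 and 2474 CPM and Atf3 at 388 and 226 CPM. Summed over the list, the level was 12074 CPM in G0s2 and 17266 CPM in Sema3c cells, 16771 CPM in Cthrc1, 27431 CPM in Ptx3, 29085 CPM in Thbs4 and 33993 CPM in Apod cells. The G0s2 subset was lowest and the Apod subset highest in this sum, as in Mt1 and Mt2. Between these ends the order differed. In the sum Cthrc1 lay below Sema3c and Ptx3 below Thbs4 cells, whereas Mt1 and Mt2 ran the other way in both pairs. Over thinned cells Spearman's rho of Mt1 with Fos, an immediate early gene, was 0.25 in G0s2, 0.21 in Sema3c and 0.02 to 0.06 in the tumour subsets. Of 6 glucocorticoid-responsive genes 3 were called higher: Sgk1, at 53.5 and 184 CPM (3.45-fold), Per1, at 21.1 and 52.1 CPM (2.47-fold), and Dusp1, at 573 and 1305 CPM (2.28-fold). Per1 reached 50 CPM in the tumour sum only. Dusp1, a phosphatase gene also induced by dissociation, was named after its values were seen. Klf9 was at 332 and 261 CPM and Errfi1 at 385 and 509.7 CPM. Tsc22d3, at 52.7 and 88.6 CPM (1.68-fold), was not called, and Fkbp5 and Zbtb16 were under 50 CPM in both sums. These genes, named after their values were seen, were each highest in Apod cells, as Mt1 was, but lowest in Cthrc1 cells. Spearman's rho of Mt1 with Fkbp5 was 0.01 to 0.11 by subset.

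Of 7 hypoxia genes 5 were called higher and 1 lower, with Slc2a1, a glucose transporter, at 6.33 and 68.5 CPM (10.8-fold) and Hk2, a hexokinase, at 98.3 and 863 CPM (8.78-fold), Ldha at 200.1 and 394 CPM, and Adm, the peptide adrenomedullin, at 192 and 82.2 CPM (2.33-fold lower). Of 6 genes of the ATF4 response, which also controls Slc7a11, 2 were called higher, Ddit4 at 10.3 and 243 CPM (23.7-fold) and Slc3a2, and Atf5, at 239 and 103 CPM, was called lower. Ddit3 was at 59.1 and 54.6 CPM. Slc2a1, Ddit4 and Bnip3, a called hypoxia gene named after its values were seen, reached 50 CPM in the tumour sum only. Over all genes 9.51% were called higher and 11.1% lower. The part of these stimuli, and of digestion, in the levels of the 10 genes was not tested.

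Markers of other cells in the fibroblast-like sums were low in both libraries but not equal. Acinar markers came to 484 CPM among normal and 57.7 CPM among tumour cells, with 7 of 8 markers found in each, and B-cell or plasma cell markers to 220.1 and 1.67 CPM, endothelial to 183 and 51.0 CPM and macrophage markers to 103 and 16.6 CPM. Epithelial markers summed to 35.1 and 90.8 CPM. The 15 normal acinar-like cells had 1540.5 CPM of Mt1. The part of such RNA in the folds was not tested.

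The normal library held cells of both sexes, whereas 0 fibroblast-like cells of the tumour library had a Y-linked UMI. In the normal library the 741 fibroblast-like cells with a Y-linked UMI and no Xist UMI were at 1183 CPM of Mt1 and 934 CPM of Gstm1, and the 477 with an Xist UMI and no Y-linked UMI at 853 and 667 CPM. Within G0s2 cells the pair of Mt1 values was 886 and 698 CPM, and within Sema3c cells 1505 and 1144 CPM. Against the 477 cells alone the log2 fold was 2.26 for Mt1 and -2.51 for Gstm1. Among fibroblast-like cells with a Pdpn UMI in both libraries (900 normal and 1828 tumour cells), which brings the normal cells nearer to the tumour gate, the log2 folds were 1.85 for Mt1, 2.85 for Mt2, 2.59 for Hmox1 and -3.02 for Gstm1.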

How the data were processed

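The deposited matrices hold raw UMI counts per gene and barcode, made with Cell Ranger 3.1.0 on mm10 per the submitters' processing notes. The 10 genes and the lists were chosen with earlier results of these data known. Barcodes with at least 500 genes, 1000 UMIs and at most 10% mitochondrial UMIs were kept. Scrublet marked 2.19% of normal cells, which were removed. In the tumour library it marked 0.078%, under 0.5%, so the top 2.06% were removed. Both libraries were clustered together (scanpy 1.11.5, igraph 0.11.9; counts scaled to 10000, log transformed, 2000 variable genes without the 10 genes, 30 components, 15 neighbours, Leiden resolution 0.5, then 0.2 within clusters). A cluster took the class with at least 3 markers found in 25% of its cells, and stayed unnamed if its top 10 genes held more markers of another class, or if it was shallow with none of its own. Written after the clusters were seen: the second pass, counting dendritic markers with macrophage markers, and subset names.

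Counts were summed per class and library; a fold is the ratio of CPM, with its interval from the binomial split of both Poisson counts (scipy 1.17.1), and shares have Clopper-Pearson intervals. A count of 0 has a floor of 3 counts. Named were the 10 genes, the 2 highest and 2 lowest of each list at 50 CPM, the 3 genes most like each of 5 members, class markers and subset leaders. The calculation was tested on simulated sums. Alternatives numbered 13 planned and 4 added after seeing the data.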

Additional observations from a re-analysis of the deposited data

How the results depend on the processing

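Each of the 10 fibroblast-like folds was recomputed under 12 alternatives, and none of the 5 called folds turned direction; 77 of the 120 values stayed within the counting interval and 43 moved outside it. Mt1, Mt2, Hmox1 and Gstm1 were called under every alternative run, with log2 folds of 1.80 to 2.52, 2.82 to 3.55, 2.22 to 3.01 and -3.02 to -2.32. Srxn1 was not called with lenient filters, with every cell weighted the same, with thinned cells or without the Cthrc1 subset, and Txnrd1 was called with TMM scaling, with median ratio scaling or at 1.5-fold. In macrophage-like cells 6 members were called higher, but 3 with doublets kept and 3 with the 10 genes used in clustering. In both settings 9 tumour cells kept the class name. The other counts of calls stayed within 1.5 times. The share of all genes called in these settings, or without the tumour cells with most Mt1, is not given here and need not be that of the main run. No paired analysis was possible because each group had 1 library, and no library could be left out. With 1 library per group the depth does not limit the abundant genes, but Slc7a11 and Nqo1 in fibroblast-like cells and all values in the 53 tumour macrophage-like cells rest on few counts.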

Other observations

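Among cells left without a class name, a cluster of 33 normal cells led by the fat-cell genes Cfd and Adipoq had 5099 CPM of Mt1 (4890 to 5315) and 1195 CPM of Mt2 (1095 to 1302), above every named class and subset of that library with at least 50 cells, at a Gstm1 level of 398 CPM. Among pericyte-like or smooth muscle-like cells Mt1 also differed by cluster: 30 cells led by Pln and Myh11 had 818 CPM, and 43 cells led by Casq2 had 20.9 CPM. These clusters were chosen after their values were seen, and come from 1 library.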
